A study of Mus musculus with 8 samples.

Results

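Hyaluronan is a long, unsulfated sugar chain of the extracellular matrix, and the genes described here make it, cut it, bind it or cross-link it. They are the hyaluronan synthases Has1, Has2 and Has3, the hyaluronidases Hyal1 and Hyal2, the receptor gene Cd44, the proteoglycan gene Vcan (versican) and Hmmr, the hyaluronan-mediated motility receptor. The 8 genes were taken by symbol, with no measured value in the rule, from 23500 genes to which the deposited transcript entries were assigned. They account for 17 transcript entries, 6 of them Cd44 and 5 Vcan, and entries of 1 gene were summed.

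The material was poly(A) RNA of cultured mesenchymal stem cells from mouse bone marrow, which can form bone, cartilage and fat. All cells were p53 knockout, so no library here has intact p53, and all were below passage 20. Each of 4 clonal lines, numbered 2, 4, 8 and 12, gave a cFos library, from cells transduced with a cFos retrovirus, and a Luc library, from cells transduced with a luciferase retrovirus, the control. cFos is a transcription factor that pairs with Jun proteins as AP-1. Each line is a single clone with 1 library per virus, so the replicates are clonal lines, and the labels do not give the viral promoter or the deleted part of p53. Series of 4 values below follow the order of clones 2, 4, 8 and 12, and "cFos 8" stands for the cFos library of clone 8.

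In background terms, the synthases are membrane enzymes that join UDP-glucuronic acid and UDP-N-acetylglucosamine and push the growing chain out of the cell. CD44 at the cell surface holds the chain, versican binds it and adds chondroitin sulfate to the pericellular coat, and hyaluronidases shorten it. CD44 is widely used as a surface marker of cultured marrow stromal cells.

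The spliced forms of Cd44 and Vcan carry much of what the deposited tables hold on these genes, so their distinguishing junctions are shown first. The sequences are from the mouse reference GRCm38 with GENCODE M21, on the coding strand. Each line joins the last 20 bases of the upstream exon, in lower case, to the first 20 bases of the next exon used, in capitals. In Cd44 the upstream exon is exon 5 at chr2:102853015-102853236. The next exon is exon 16 in the standard form NM_001039151, exon 14 in NM_001177787 and exon 6 in the full-length form NM_009851.
Cd44 NM_001039151: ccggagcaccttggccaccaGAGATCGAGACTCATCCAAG
Cd44 NM_001177787: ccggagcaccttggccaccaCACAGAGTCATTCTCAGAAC
Cd44 NM_009851: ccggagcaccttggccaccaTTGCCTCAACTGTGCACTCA

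In Vcan the upstream exon is exon 6 at chr13:89712205-89712498. V0 continues into exon 7 and then exon 8, the exons that encode the stretches to which chondroitin sulfate is attached, and V1 goes straight to exon 8.
Vcan V0 NM_001081249: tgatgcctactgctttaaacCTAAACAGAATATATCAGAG
Vcan V1 NM_019389: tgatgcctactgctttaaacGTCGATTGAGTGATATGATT

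The standard Cd44 form has 9 exons against 19 in the full-length form and lacks exons 6 to 15, which hold 1245 bases. V1 lacks the 2880 bases of Vcan exon 7. The deposited transcript lengths differ by the same 1245 and 2880 bases. In the deposited tables, which use build mm9, Cd44 lies on chromosome 2 from 102651300 to 102741822 and Vcan on chromosome 13 from 89794915 to 89882117. Has1 lies on chromosome 17 from 17980290 to 17992152, Has2 on chromosome 15 from 56497182 to 56526101, Has3 on chromosome 8 from 109394142 to 109406802 and Hmmr on chromosome 11 from 40514890 to 40546939.

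Libraries held 6.93 to 9.14 gigabases of sequence aligned to transcripts, and 10970 to 11121 genes per library reached 1 FPKM (fragments scaled by transcript length and by the mapped fragments of the library). Fos stood at 589, 675, 1019 and 505 FPKM in the cFos libraries, against 76.2, 41.1, 302 and 43.5 in the Luc libraries. Of 14 stromal markers, Cd44 among them, 11 reached 1 FPKM in at least 4 libraries, with summed levels of 3635 to 5382 FPKM in cFos and 4950 to 10380 in Luc, while Lepr peaked at 1.39. The higher Luc sums came with Cxcl12, which averaged 359 FPKM in cFos and 3364 in Luc, and 9 of the 14 markers had the higher mean in cFos. The 10 blood markers summed to 58.9 to 94.5 FPKM in cFos and 8.02 to 99.4 in Luc, and Ly6c1 made up 92.6 to 97.8% of the sum in cFos, against 88.0, 96.0, 31.7 and 89.5% in Luc. Ptprc, the pan-leukocyte gene, never passed 0.0718, and no other blood marker passed 2.85. The 6 endothelial markers stayed at or below 0.328 FPKM, with Cdh5 at 0 in all 8 libraries, and the 4 epithelial markers at or below 0.367.

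**Figure D1:**
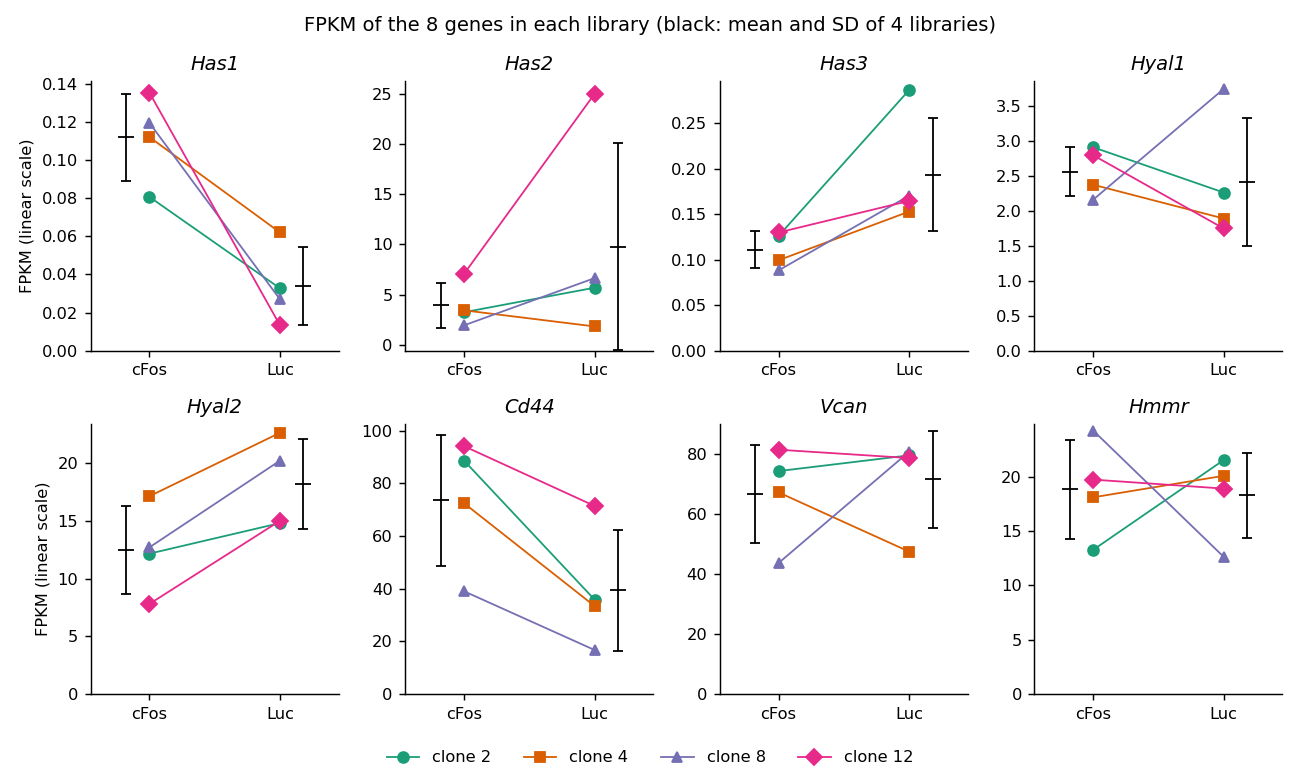
FPKM of the 8 genes (linear vertical axes, a separate scale for each gene) in the cFos library and the Luc library of each clone, joined by a line, with the mean and SD of 4 libraries in black. Has1, Has3, Cd44 and Hyal2 each run in 1 direction in all 4 clones, while Has2, Hyal1, Vcan and Hmmr run in different directions in different clones.

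Ranked by the mean over all 8 libraries, Vcan led at 69.1 FPKM, followed by Cd44 at 56.4, Hmmr at 18.6, Hyal2 at 15.3, Has2 at 6.87, Hyal1 at 2.49, Has3 at 0.152 and Has1 at 0.0729. FPKM is scaled by transcript length, so these levels can be set side by side. Only between Hyal1 and Has3 did the ranges over libraries not overlap. All other neighbours in this order overlapped. The leading pair stood in a different order in most cFos libraries than in the Luc libraries. Cd44 stood at 1.19, 1.08, 0.893 and 1.15 times the FPKM of Vcan in the cFos libraries, against 0.450, 0.703, 0.206 and 0.907 times in the Luc libraries. Cd44 was thus above Vcan in 3 of 4 cFos libraries, and Vcan was above Cd44 in 4 of 4 Luc libraries. This ratio was chosen after its values were seen and has no test.

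Which of the genes differed between cFos and Luc cells was tested with limma on log2(FPKM + 0.5) over the 11162 genes that reached 1 FPKM in 4 or more libraries. A gene was called where the Benjamini-Hochberg adjusted p, two-sided and over all 11162 genes, was under 0.05. Log2 differences below are cFos minus Luc on this scale, on which the added 0.5 shrinks differences of genes with low FPKM. Has1 and Has3 lay under the filter, and the other 6 genes were tested. Without a clone term, limma called none of the 6, against 5.55% of all tested genes. At an unadjusted p under 0.05 it had 2 of the 6, Cd44 and Hyal2, against 20.1% of tested genes. Adding a clone block, which compares the viruses within each line, limma called 1 of the 6, Cd44, as higher, against 8.79% of tested genes called in either direction and 4.51% called higher. At an unadjusted p under 0.05 the blocked fit had the same 2 of the 6, Cd44 and Hyal2, against 26% of tested genes. In none of the 6 did the cFos and Luc libraries stand fully apart, as they did with cFos higher for 5.86% and with cFos lower for 7.8% of tested genes (13.7% together). In bulk cultures such as these, fewer cells that express a gene and less RNA per cell cannot be told apart.

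**Figure D2:**
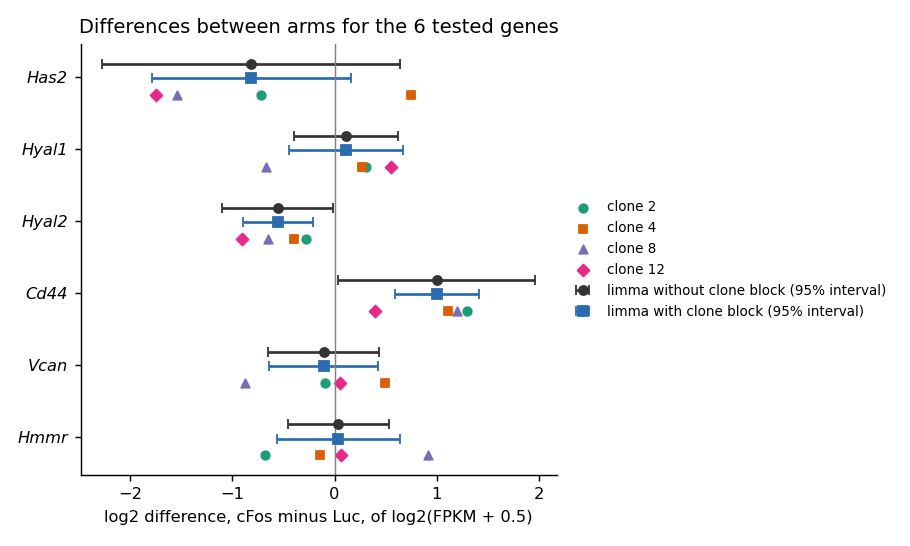
Log2 difference of log2(FPKM + 0.5), cFos minus Luc (horizontal axis), for the 6 tested genes, with the value in each clone and the limma estimate with its 95% interval, without the clone block (black circles) and with it (blue squares). Both intervals of Cd44 lie above 0 and both of Hyal2 lie below 0, and those of the other 4 genes span 0.

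Cd44 encodes the main cell surface receptor for hyaluronan and had the lowest adjusted p of the 6 tested genes in both limma fits. It stood at 88.6, 72.4, 39.0 and 94.1 FPKM in the cFos libraries, against 35.8, 33.4, 16.7 and 71.4 in the Luc libraries. In every clone the cFos library was the higher, by 2.47-fold, 2.17-fold, 2.34-fold and 1.32-fold. The groups overlapped all the same, because cFos 8 lay below Luc 12. The means were 73.5 ± 24.8 FPKM in cFos and 39.3 ± 23.0 in Luc (SD, n = 4 each).

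The log2 difference of Cd44 was 1.00 (SE 0.43, 95% interval 0.04 to 1.96, limma unadjusted p = 0.0433, adjusted p = 0.232), which did not pass. Without Luc 8 it was 0.66. With the clone as a block the difference of 1.00 had an SE of 0.17 and an interval of 0.59 to 1.41, and Cd44 rose in cFos (limma adjusted p = 0.0204). Without clone 2 the blocked adjusted p was 0.0893 and without clone 4 it was 0.0841, so the call ended without either, while it stood at 0.0458 without clone 8 and 0.0123 without clone 12. A higher level in all 4 clones was found for 15.3% of tested genes. The Cd44 interval that Cufflinks gives for the leading transcript did not overlap between cFos and Luc in any of the 4 clones. Such an interval covers the estimate within 1 library and not the spread between cultures.

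Cd44 also varied between lines, though the test of the lines did not pass. Clone 8 was lowest in each arm (39.0 FPKM in cFos, 16.7 in Luc) and clone 12 highest (94.1 in cFos, 71.4 in Luc). In a model of virus plus clone, limma's F test of the lines gave F = 16.3 for Cd44, unadjusted p = 0.0021 and adjusted p = 0.108. That test called 0.484% of all tested genes and none of the 6 here. Hyal2 (unadjusted p = 0.0243, limma adjusted p = 0.240) and Has2 (0.0337 and 0.268) also had an unadjusted p under 0.05 between lines, as did 16.5% of tested genes.

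Nearly all Cd44 signal belonged to the standard form NM_001039151, the transcript of the exon 5 to exon 16 junction printed above. It held 97.8, 98.2, 97.4 and 97.3% of Cd44 FPKM in cFos, against 96.3, 95.9, 97.3 and 96.7% in Luc. None of the other 5 Cd44 entries, which retain variable exons, exceeded 1.30 FPKM in any library. The full-length form NM_009851 held at most 0.119% of Cd44 FPKM. Among 13318 transcripts with enough signal to test, the standard form had a log2 difference of 1.02 (limma adjusted p = 0.238), and with the clone block it rose (adjusted p = 0.0235). Limma called 4.73% of these transcripts without the block and 7.41% with it. The split of reads between forms is a model estimate by Cufflinks, and the forms share their outer exons.

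Versican, the large hyaluronan-binding proteoglycan of the pericellular matrix, was the most abundant of the 8 transcripts in Luc cells, and its difference between the viruses changed sign between clones. Vcan stood at 74.3, 67.2, 43.7 and 81.5 FPKM in the cFos libraries, against 79.6, 47.5, 80.8 and 78.7 in the Luc libraries. The cFos library was higher in clones 4 and 12 and lower in clones 2 and 8, and the groups overlapped. The means were 66.7 ± 16.4 FPKM in cFos and 71.6 ± 16.1 in Luc (SD, n = 4 each), with a log2 difference of -0.11 (SE 0.24, interval -0.65 to 0.43, limma adjusted p = 0.844). Without cFos 8 the log2 difference of Vcan was 0.08, on the other side of 0.

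V1 was the larger versican transcript in every library and V0 most of the rest. V0 stood at 27.0, 23.8, 9.10 and 35.5 FPKM in cFos, against 25.1, 11.6, 31.6 and 33.1 in Luc. V1 stood at 46.7, 43.0, 34.0 and 45.3 FPKM in cFos, against 53.8, 35.4, 48.1 and 44.7 in Luc. Over the 8 libraries V0 varied more than V1, with its lowest values in cFos 8 and Luc 4, the libraries in which total Vcan was also lowest.

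As a share of Vcan FPKM, V0 made up 36.3, 35.4, 20.8 and 43.5% in cFos, against 31.5, 24.4, 39.1 and 42.1% in Luc. The mean share was 34.0 ± 9.52% in cFos and 34.3 ± 7.95% in Luc (SD, n = 4 each), a difference of -0.26 points, with an exact two-sided permutation p of 1. The V1 share averaged 65.1 ± 9.29% in cFos and 64.7 ± 8.08% in Luc, again with an exact permutation p of 1, and both p-values stayed at 1 when adjusted over the 2 shares. Without cFos 8 the V0 difference was 4.14 points. The other 3 versican entries, among them V2 (NM_001134474), which lacks exon 8, and V3 (NM_001134475), which lacks exons 7 and 8, did not exceed 0.673 FPKM in any library. Thus most versican RNA in each library was assigned to forms with exon 8, and the V0 share of it to the form that also has exon 7.

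**Figure D3:**
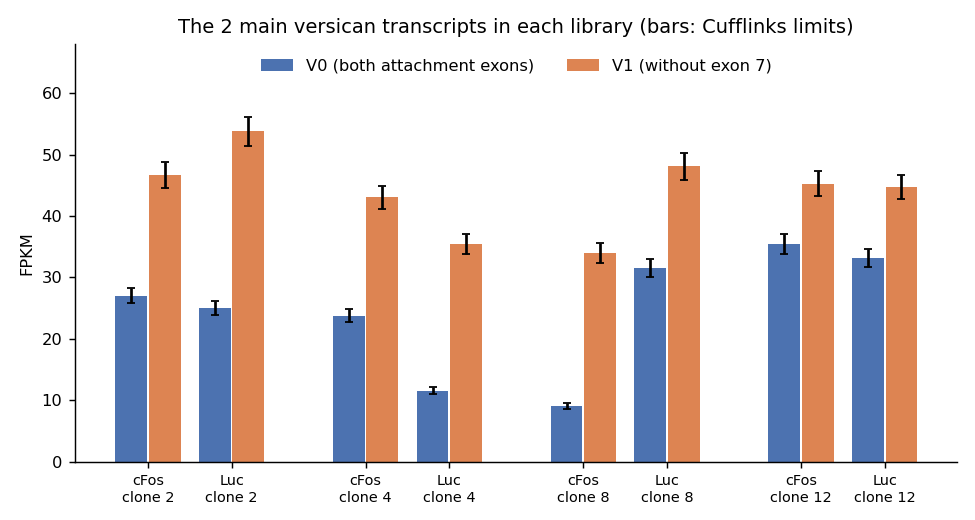
FPKM of versican V0 and V1 in the cFos and Luc library of each clone, with Cufflinks' confidence limits for each library as error bars. V1 is above V0 in all 8 libraries, and V0 is lowest in cFos 8 (9.10) and Luc 4 (11.6).

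Has2, the synthase that makes most hyaluronan in many connective tissue cells, supplied between 89.6 and 99.3% of the summed FPKM of the 3 synthases, with a median over libraries of 94.5%. It stood at 3.27, 3.46, 1.96 and 7.08 FPKM in the cFos libraries, against 5.70, 1.86, 6.65 and 24.96 in the Luc libraries. The cFos library was lower in clones 2, 8 and 12, at 0.573, 0.295 and 0.283 times the Luc level, and higher in clone 4, at 1.86 times. Cufflinks' intervals did not overlap in any of the 4 clones, so the opposite direction in clone 4 was larger than the estimation error of the libraries. Luc 12 alone was above 7.08 FPKM.

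Has2 averaged 3.94 ± 2.19 FPKM in cFos and 9.79 ± 10.3 in Luc (SD, n = 4 each). Its log2 difference was -0.81 (SE 0.64, interval -2.27 to 0.64, limma adjusted p = 0.537), which did not pass, nor did it with the clone block (adjusted p = 0.265). Without Luc 12 the difference was -0.21 and without Luc 4 it was -1.35, the ends of the range without 1 library. The spread of Has2 over all libraries, 13.5-fold between Luc 4 and Luc 12, was the widest among the 8 genes. Clone 12 had the highest Has2 level with either virus.

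Has1 and Has3, the minor synthases, were listed at a small fraction of 1 FPKM in every library. Has1 stood at 0.0807, 0.112, 0.120 and 0.135 FPKM in cFos, against 0.0327, 0.0621, 0.0270 and 0.0134 in Luc. All 4 cFos libraries were above all 4 Luc libraries, with means of 0.112 ± 0.0230 in cFos and 0.0338 ± 0.0205 in Luc (SD, n = 4 each). For Has3 the groups were also apart, in the other direction, at 0.126, 0.0995, 0.0883 and 0.130 FPKM in cFos, against 0.287, 0.153, 0.171 and 0.165 in Luc. Its means were 0.111 ± 0.0203 FPKM in cFos and 0.194 ± 0.0624 in Luc. Each gave an exact two-sided permutation p of 0.0286 over the 70 arrangements of libraries, the smallest that 4 against 4 allows. The exact permutation test that exchanged viruses within clones gave p = 0.125 for each, the smallest of 16 exchanges.

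Among the 3060 genes under the filter that were above 0 in all libraries, the groups did not overlap with cFos higher for 5.29% and with cFos lower for 5.92%, and in this comparison Has1 and Has3 account for 1 gene each. Cufflinks' intervals for Has1 overlapped in clones 2, 4 and 8, and those for Has3 in clones 4, 8 and 12. On the deposited coverage, the mean read depth per base, Has1 stood at 0.793, 0.590, 0.756 and 0.958 in cFos, against 0.208, 0.666, 0.161 and 0.0472 in Luc, so that Luc 4 exceeded cFos 4. At under 1 read per base the difference of Has1 rests on few fragments. With no filter on low genes, limma called Has1 (adjusted p = 0.0428) and not Has3 (adjusted p = 0.207).

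Hyal2, an enzyme anchored at the cell surface that cuts long hyaluronan chains, was the more abundant hyaluronidase. It stood at 12.2, 17.1, 12.7 and 7.798 FPKM in the cFos libraries, against 14.8, 22.6, 20.2 and 14.9996 in the Luc libraries. The cFos library was the lower in each clone, at 0.821, 0.757, 0.628 and 0.520 times the Luc level, with Cufflinks' intervals apart in all 4, but the groups overlapped because cFos 4 lay above Luc 2 and Luc 12. The means were 12.4 ± 3.82 FPKM in cFos and 18.2 ± 3.89 in Luc (SD, n = 4 each). The log2 difference was -0.55 (SE 0.24, interval -1.10 to -0.01, limma unadjusted p = 0.0460, adjusted p = 0.238), and the blocked adjusted p was 0.0624. Without cFos 12 the difference was -0.36 and without cFos 4 it was -0.72, the ends of the range without 1 library. Hyal2 therefore passed in neither fit, and 20.9% of tested genes were lower in cFos in all 4 clones.

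Hyal1, the lysosomal hyaluronidase that cuts the chains further after uptake, stood at 2.91, 2.38, 2.16 and 2.80 FPKM in cFos, against 2.26, 1.89, 3.75 and 1.75 in Luc. It was higher with cFos in clones 2, 4 and 12 and lower in clone 8, where Luc 8 was the highest of all libraries. The means were 2.56 ± 0.353 FPKM in cFos and 2.41 ± 0.916 in Luc (SD, n = 4 each), a log2 difference of 0.11 (SE 0.23, interval -0.40 to 0.62, limma adjusted p = 0.8287). The FPKM of Hyal2 was between 2.79 and 12.0 times that of Hyal1, lowest in cFos 12 and highest in Luc 4. Hyal1 and Hyal2 lie next to each other on mouse chromosome 9 (Hyal2 at 107471494 to 107475109 and Hyal1 at 107479283 to 107482464, mm9, as the files give them), and in clones 2, 4 and 12 their differences had opposite signs.

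Hmmr encodes a hyaluronan-binding protein that also sits on the mitotic spindle and whose transcript is known to cycle with cell division. It stood at 13.3, 18.1, 24.3 and 19.7 FPKM in the cFos libraries, against 21.5, 20.1, 12.6 and 18.9 in the Luc libraries. The cFos level was 0.616, 0.901, 1.92 and 1.04 times the Luc level of the same clone. The groups overlapped, with means of 18.8 ± 4.54 FPKM in cFos and 18.3 ± 3.93 in Luc (SD, n = 4 each) and a log2 difference of 0.04 (SE 0.22, interval -0.46 to 0.53, limma adjusted p = 0.948). The extremes of both groups came from clones 2 and 8, which differed in opposite directions.

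The mitosis list holds 24 genes. Besides genes of the spindle, its checkpoint and cytokinesis, it has cyclin genes and others, such as Cdk1, Mki67, Top2a and Brca1. Limma called none of the 24, against 5.55% of all tested genes, and none had an unadjusted p under 0.05, against 20.1%. The list's median log2 differences by clone were -0.89, -0.20, 0.84 and -0.22, where Hmmr had -0.68, -0.15, 0.92 and 0.06. With cFos, 1, 4, 24 and 4 of the 24 were higher in these clones. Pearson's r with Hmmr over the 8 libraries was between 0.48 (Dynll1, a dynein light chain) and 0.96 (Bub1, a spindle checkpoint kinase), with a median of 0.81 over the list. Over all other tested genes the median r was 0.03. These are descriptions across libraries that share clones and depth. The part that the rate of division has in the Hmmr values was not tested.

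**Figure D4:**
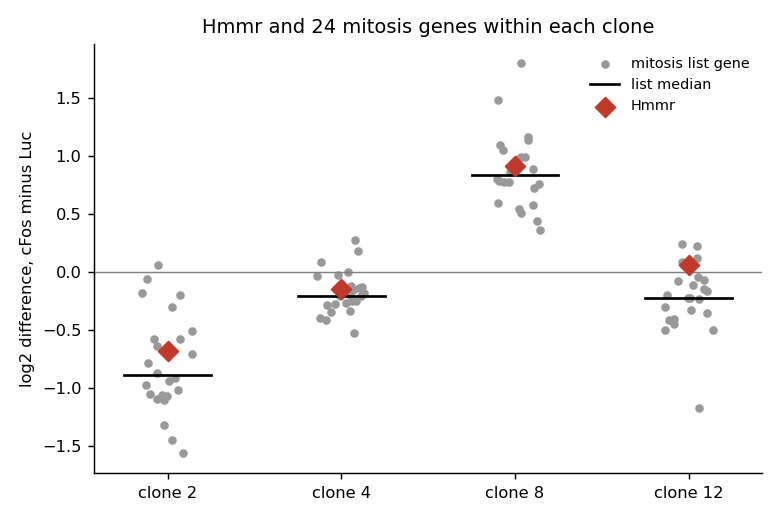
Log2 difference, cFos minus Luc (vertical axis), of Hmmr (diamonds) and of the 24 genes of the mitosis list (dots, with the list median as a bar) in each of the 4 clones. Clone 8 stands above 0 for all 24 genes, and 23 of the 24 are below 0 in clone 2.

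The promoter of Hmmr is printed because Hmmr and the mitosis list had the same sign in clones 2, 4 and 8, though not in clone 12, and CCAAT boxes are a known feature of promoters of cell cycle genes. The 250 bases before the start of Hmmr (RefSeq, GRCm38.p6, chr11:40733438-40733687, minus strand) hold 5 matches to CCAAT, all on the strand opposite to the gene, so that the printed strand reads ATTGG, set in capitals.
Hmmr promoter: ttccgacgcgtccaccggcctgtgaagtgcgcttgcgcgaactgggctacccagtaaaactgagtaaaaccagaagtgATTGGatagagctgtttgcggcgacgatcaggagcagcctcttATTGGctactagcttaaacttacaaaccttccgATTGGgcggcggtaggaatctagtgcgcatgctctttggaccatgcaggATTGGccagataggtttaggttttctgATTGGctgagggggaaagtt

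The matches begin 172, 129, 96, 47 and 20 bases before the start. Counting both strands, 33.8% of 32851 mouse promoters of this length held at least 1 CCAAT and 0.213% held at least 5. Of 22 promoters matched to 20 genes of the mitosis list, 19 held at least 1 (86.4%), 12 held at least 2 (54.5%, against 10.1% of all promoters) and 1 held at least 5. RefSeq promoters were matched for 6 of the 8 genes, all but Has2 and Has3. The AP-1 motif TGANTCA, the class of site that dimers containing cFos bind, was in none of these 6 windows and in 6.75% of all promoters. The related motif TGACGTCA occurred once, in Has1 at 83 bases before the start, and in 1.55% of all promoters. The motif TTTGAA, another element of cell cycle promoters, was also in Has1 alone of the 6 and in 15.99% of all promoters. Both strands were searched, and these motifs share no match with CCAAT. A match is a run of letters in a short window and says nothing of binding.

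Genes that supply the sugar precursors of hyaluronan showed 1 call among 11 tested of 12 listed, a fall. Ugp2, which makes UDP-glucose, stood at 29.4, 28.5, 34.1 and 27.3 FPKM in the cFos libraries, against 55.3, 58.3, 66.1 and 37.8 in the Luc libraries. Every cFos library was below every Luc library, and Ugp2 fell by 0.83 on the log2 scale (SE 0.18, limma adjusted p = 0.0291), where 2.62% of all tested genes were called lower. The Ugp2 call ended in 7 of the 8 fits that left out a library, the exception being Luc 12, with adjusted p up to 0.0900. With no filter it was 0.0547. With the clone block Ugp2 was called lower (limma adjusted p = 0.0154), but not without clone 2 (0.0699) or clone 4 (0.0823). Ugdh, which oxidises UDP-glucose to the UDP-glucuronic acid that synthases use, averaged 118 ± 19.7 FPKM in cFos and 87.7 ± 15.7 in Luc (limma adjusted p = 0.201), higher in 4 of 4 clones and not called. The glycolytic genes Gpi1 (122 ± 19.96 FPKM in cFos and 83.6 ± 24.8 in Luc) and Hk1 (57.4 ± 8.17 in cFos and 40.7 ± 8.93 in Luc) were not called either. The median log2 difference of the list was 0.18, against -0.06 over all tested genes. Of the 11, 5 had an unadjusted p under 0.05, against 20.1% of all tested genes.

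Of 10 genes of hyaluronan turnover 5 were expressed enough to test. Limma called none of them without the block, against 5.55% of all tested genes. The lysosomal exoglycosidase genes Hexa and Gusb averaged 84.0 ± 15.2 and 45.04 ± 9.09 FPKM in cFos, against 97.4 ± 23.2 and 41.5 ± 10.8 in Luc. With the clone block Cemip2, a membrane protein that degrades hyaluronan in mouse cells, fell in cFos, at 6.11, 5.96, 3.65 and 22.6 FPKM, against 31.3, 12.8, 22.3 and 45.8 in Luc (log2 difference -1.69, limma adjusted p = 0.0195 with the block and 0.118 without it). It was lower in 4 of 4 clones and was named after its value was seen. The median of the 5 was -0.20 on the log2 scale. Without the block 1 of them had an unadjusted p under 0.05, against 20.1% of all tested genes.

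Other hyaluronan-binding proteins and receptors gave 2 calls, both higher, among 10 tested of 24 listed, where 2.92% of all tested genes were called higher. Layn encodes layilin, a membrane protein that binds hyaluronan. It stood at 25.9, 34.6, 29.9 and 19.0 FPKM in the cFos libraries, against 6.23, 11.4, 8.71 and 7.77 in the Luc libraries. Every cFos library was above every Luc library, and Layn rose by 1.62 on the log2 scale (SE 0.22, limma adjusted p = 0.00470), a call that held without each of the 8 libraries in turn.

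Tlr4, an innate immune receptor for which hyaluronan fragments are a reported ligand, stood at 20.1, 14.8, 18.7 and 10.4 FPKM in cFos, against 8.28, 8.43, 8.70 and 4.72 in Luc. It rose by 1.04 on the log2 scale (SE 0.25, limma adjusted p = 0.0482), but the call ended in 7 of the 8 fits that left out a library, the exception being cFos 12, with adjusted p up to 0.142. It also ended with no filter (0.0944) and without the mean-variance trend (0.0530). With the clone block Tlr4 was called higher (limma adjusted p = 0.00719). Itih5, an inter-alpha-trypsin inhibitor heavy chain of the family that couples to hyaluronan, rose with the block alone (adjusted p = 0.0222, against 0.508 without it), at 11.5, 4.87, 59.0 and 3.13 FPKM in cFos, against 4.45, 3.33, 16.4 and 0.636 in Luc.

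Not called in that list were Ptx3, a soluble cross-linker of hyaluronan matrix at 39.9 ± 21.4 FPKM in cFos and 79.8 ± 73.5 in Luc, Itih2 at 25.7 ± 18.2 in cFos and 24.8 ± 23.7 in Luc, and C1qbp at 106 ± 12.5 in cFos and 95.2 ± 23.3 in Luc. The list's median log2 difference was 0.16, and 3 of the 10 had an unadjusted p under 0.05, against 20.1% of all tested genes. The remaining 14 listed genes, among them the link protein genes Hapln1, Hapln2 and Hapln3 and the lymphatic receptor gene Lyve1, lay under the filter. Lyve1 did not pass 0.0105 FPKM in any library.

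Partners and processing enzymes of CD44 gave 0 calls among 11 tested of 13 listed, in either limma fit. Of all tested genes, 5.55% were called without the block and 8.79% with it. Without the block 4 of the 11 had an unadjusted p under 0.05, against 20.1% of all tested genes. Spp1 (osteopontin, a reported CD44 ligand) averaged 1638 ± 884 FPKM in cFos and 1430 ± 169 in Luc. Mmp14, a membrane protease that cuts CD44, averaged 183 ± 46.6 in cFos and 232 ± 22.7 in Luc. Msn (moesin), which ties CD44 to actin, averaged 178 ± 21.8 in cFos and 178 ± 64.7 in Luc. The median log2 difference was 0.09.

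**Figure D5:**
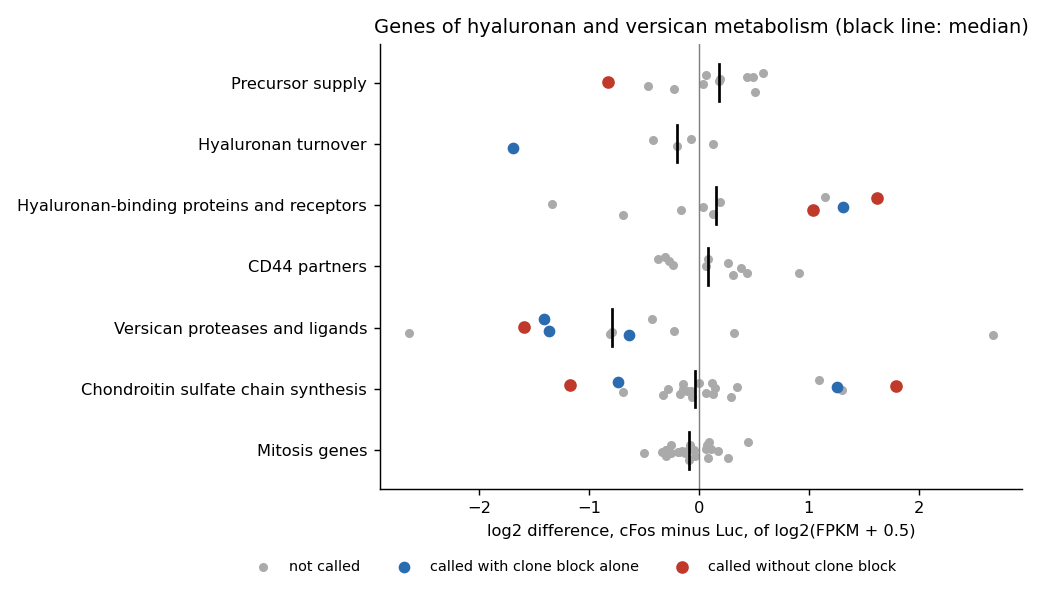
Log2 difference of log2(FPKM + 0.5), cFos minus Luc (horizontal axis), of each tested gene in 7 lists, with the list median as a black line. Red dots were called by limma without the clone block, blue dots with the block alone and grey dots in neither, and the list of versican proteases and ligands has the lowest median, -0.80.

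Versican proteases and matrix ligands had the lowest median of these lists, -0.80 on the log2 scale. Of the 11 tested genes (17 listed), 6 had an unadjusted p under 0.05, against 20.1% of all tested genes. The lists were chosen with earlier results of these data known, so this count is a description. Without the block limma called 1, lower, and with the block 4, all lower. Of all tested genes, 2.62% were called lower without the block and 4.28% with it. Fbn1 (fibrillin-1, a microfibril protein that versican binds) stood at 20.7, 16.5, 21.4 and 37.7 FPKM in cFos, against 77.5, 45.9, 110.1 and 62.1 in Luc. The groups did not overlap, and Fbn1 fell by 1.59 (SE 0.31, limma adjusted p = 0.0210). The call ended without cFos 2, cFos 4, cFos 8 or Luc 2, with adjusted p up to 0.0722, and with no filter (0.0536). With the block Fbn1 was called lower (limma adjusted p = 0.0161), but not without clone 2 (0.0844) or clone 4 (0.0542).

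The genes called lower with the block alone were Fbn2, Fbln1 and Nid1, named after their values were seen. Fbn2 averaged 4.12 ± 5.38 FPKM in cFos and 10.09 ± 10.02 in Luc (blocked adjusted p = 0.0161), Fbln1 (fibulin-1) 14.3 ± 3.74 in cFos and 46.0 ± 40.0 in Luc (0.0249), and Nid1 (nidogen-1, a basement membrane protein) 86.8 ± 18.1 in cFos and 135 ± 22.1 in Luc (0.0332), all by limma and all lower in 4 of 4 clones. Timp3, an inhibitor of versican-cutting ADAMTS proteases, had the opposite direction in 4 of 4 clones without a call, at 584, 359, 473 and 489 FPKM in cFos, against 116, 59.6, 11.03 and 358 in Luc (log2 difference 2.68, limma adjusted p = 0.117). Tnc (tenascin-C) averaged 102 ± 35.9 in cFos and 205 ± 153 in Luc, and Fbln2 259 ± 181 in cFos and 188 ± 103 in Luc, and neither was called. The lowest difference of the list, named after its value was seen, was that of Adamts9, a protease that cuts versican, at 1.34, 0.570, 0.910 and 2.11 FPKM in cFos, against 22.2, 2.51, 39.9 and 3.47 in Luc. The groups did not overlap, and its log2 difference of -2.64 was not called (SE 0.79, limma adjusted p = 0.0955, and 0.0631 with the block).

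Chondroitin sulfate synthesis, which builds the side chains of versican, gave 1 gene higher and 1 lower among 22 tested of 24 listed, where 2.92% of all tested genes were called higher and 2.62% lower. With the block 2 were higher and 2 lower, where 4.51% and 4.28% of all tested genes were. Papss2, which makes the sulfate donor, stood at 44.0, 26.3, 44.6 and 30.4 FPKM in the cFos libraries, against 7.12, 8.38, 12.5 and 12.7 in the Luc libraries. It rose by 1.79 (limma adjusted p = 0.00451), and the call held without each of the 8 libraries. The other gene of the same function, Papss1, averaged 28.2 ± 2.88 FPKM in cFos and 30.9 ± 6.31 in Luc (limma adjusted p = 0.773).

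Chst15, a chondroitin sulfotransferase, stood at 5.76, 5.06, 5.50 and 5.62 FPKM in cFos, against 22.8, 15.6, 9.79 and 8.07 in Luc. It fell by 1.17 (SE 0.28, limma adjusted p = 0.0482), and the call ended in 6 of the 8 fits that left out a library, all but Luc 8 and Luc 12, with adjusted p up to 0.121. With a pseudocount of 1 the adjusted p was 0.0504, with no filter 0.0978 and without the trend 0.0527. With the block Chst15 was called lower (limma adjusted p = 0.0370), but not without clone 2 (0.117) or clone 4 (0.139). With the block alone the sulfotransferase gene Chst3 rose (adjusted p = 0.0115, against 0.0615 without it), at 2.12 ± 0.788 FPKM in cFos and 0.622 ± 0.434 in Luc. Xylt2, which starts the chains, fell with the block alone (0.0249, against 0.0949), at 6.63 ± 1.201 in cFos and 11.6 ± 3.70 in Luc. The list median was -0.03, and 6 of the 22 had an unadjusted p under 0.05 without the block, against 20.1% of all tested genes. Not called and most abundant besides Papss1 were Dse, an epimerase that converts chondroitin to dermatan sulfate (37.4 ± 3.41 FPKM in cFos and 47.3 ± 7.34 in Luc), and the sulfotransferase gene Chst12 (27.0 ± 6.504 in cFos and 22.2 ± 6.15 in Luc).

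For each tested gene the 3 genes of most similar pattern were taken by Pearson's r of log2(FPKM + 0.5) over the 8 libraries, among all tested genes. For Cd44 these were Sertad2 (0.99), Chac1 (0.98) and Capn6 (0.98), and for Has2 Inpp4a (0.96), Ptpn14 (0.95) and Sdr39u1 (0.91). Hyal1 was closest to Mir22hg (0.98), Htra1 (0.97) and Hlcs (0.97), and Hyal2 to Dok4 (0.98), Mon1a (0.97) and Pxn (0.97). Vcan, whose best values were lower than those of Cd44, was closest to Srl (0.94), Zfp973 (0.92) and Gas1 (0.91), and Hmmr to Snord15b (0.98), Malsu1 (0.98) and Ttk (0.98), a mitotic checkpoint kinase gene. None of these 18 genes was called by limma between cFos and Luc, with adjusted p between 0.129 and 0.975. With 8 libraries and 11162 genes, high values of r occur for many genes, and they are given as a description.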

How the data were processed

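Per the labels' protocols, TruSeq libraries were made from poly(A) RNA. The submitters' processing notes name CASAVA 1.8.2, TopHat, Cufflinks and build mm9; for TopHat and Cufflinks the version and options, and the annotation release, were not given in the sources used here. The deposited tables list an FPKM estimate with confidence limits for each RefSeq transcript, per the file headers. Per the file headers, the deposited coverage column is the mean depth per base, a signal with no normalization. The authors' FPKM split reads between overlapping transcripts by a model. The tables have no read counts, and counting intervals were therefore not computed.

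Each table had 30769 entries with 30239 distinct accessions. A RefSeq table gave symbols to 30227 entries, GENCODE M21 to 180 more, and 362 stayed unnamed. Entries of 1 symbol were summed, and 3 genes whose status was not OK in every library, none of them among the 8 described, were left out. Depth was taken as coverage times length summed over transcripts. limma 3.58.1 in R 4.3.3 (lmFit, eBayes with trend) was run on log2(FPKM + 0.5) for genes reaching 1 FPKM in 4 or more libraries, with the virus as the only term. Tables and plots were made in Python 3.11.15 (pandas 2.3.3; numpy 2.4.6; matplotlib 3.10.9). Has1, Has3 and the versican shares were tested by exact permutation. The code was tested on simulated data.

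The clone numbers pair libraries, since the labels give equal numbers to libraries of 1 line. Deviations from the group means correlated between libraries of the same clone by 0.174 to 0.593, and between libraries of different clones by -0.381 to -0.00861. Deviations from a group mean cancel over the group, so positive values in some pairs come with negative ones in others. Given the pairing, each limma result was also computed with a clone block.

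The 8 genes and the lists were chosen with earlier results of these data known, so no count over them is independent evidence. Named from each list were the genes called without the block (at most 8) and the 3 uncalled genes of highest mean, of which 1 is not reported here. Genes called with the block alone were named after their values were seen. Cd68 did not match a gene of the files, and Adgre1 and Cemip2 stand under older symbols in some annotations. Every library was also left out in turn. Other settings tried were median-of-ratios scaling, rescaling to TPM, eBayes without trend, the largest entry of each symbol, pseudocounts of 0.1 and 1, a minimum of 5 FPKM and no filter.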

Additional observations from a re-analysis of the deposited data

Results flagged for a closer look

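In 20 groups of 4 values checked for a sample far from the others (Dixon's ratio past its 95% critical value), 2 were marked, and chance marks about 1 in 20 groups. Has3 stood at 0.287 FPKM in Luc 2, above 0.153 to 0.171 in the other Luc libraries. Vcan stood at 47.5 FPKM in Luc 4, below 78.7 to 80.8 in the other Luc libraries.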

How the results depend on the processing

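Of 367 recomputed values, 319 kept their direction and side of the threshold or, for counts, stayed near the main count. Counts as far apart as 226 and 326 were still taken as near. Another 22 moved, 15 reversed and 4 gained a call. The other 7 were for Has1 and Has3, which lay under the filter and so had no call to lose. Their unadjusted exact p of 0.0286 became an exact p of 0.0571 or 0.125, or a limma adjusted p of 0.207. The 0.125 is the smallest that exchange within clones allows, so that change was fixed in advance. Genes called higher in cFos numbered 326, 503 with the clone as a block and 150 to 319 without 1 library. Genes called lower numbered 293, 478 with the block, 175 with no filter and 85 to 295 without 1 library. Among the 8 genes, 0 were called higher, 1 with the block (Cd44), 1 with no filter (Has1), and 0 to 1 with the block and without 1 clone, a setting chosen after seeing the data. Calls in the pathway lists were 3 higher (5 with the block, 2 to 3 without 1 library) and 3 lower (8 with the block, 0 with no filter, 0 to 3 without 1 library).

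The pairing by clone gained a call for Cd44 (1.00, limma adjusted p = 0.0204) and for its standard form. The second is largely the same signal, since that form holds nearly all Cd44 FPKM. None of the 6 tested genes had a call without the block, so none could end. Without 1 library the Cd44 difference was 0.66 to 1.34 (adjusted p 0.0794 to 0.441). With the block it was 0.93 without clone 8, 1.20 without clone 12, and 0.90 to 1.20 over all 4 clones left out. Signs turned for Vcan at 0.081 without cFos 8 and 0.15 with the block without clone 8 (-0.29 to 0.08 without 1 library, -0.31 to 0.15 with the block without 1 clone). They turned for Hmmr at -0.09 without cFos 8, -0.13 without Luc 8 and -0.25 with the block without clone 8 (-0.13 to 0.19 and -0.25 to 0.28). Hyal1 stood at -0.035 with the block without clone 12 (up to 0.37 without another clone). V0 stood at 0.26, 0.0055 and 0.03 without cFos 8, Luc 8 or Luc 12 (-0.46 to 0.26). Its share stood at 4.14, 1.34 and 2.35 points (-3.55 to 4.14) and the V1 share at -3.85, -1.30 and -2.20 points (-3.85 to 3.74). The cause of these turns was not tested beyond the library left out.

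Has1 differed by 0.20 on the scale of log2(FPKM + 0.5), and exchange within clones gave the same 0.20 with exact p = 0.125. As a log2 ratio of means with no pseudocount, depth-scaled coverage, an alternative chosen after seeing the data, gave 1.54 (exact p = 0.0571), against 1.73 from FPKM in that form. Has3 differed by -0.18, with exact p = 0.125 within clones and an adjusted p of 0.207 by limma with no filter. Without 1 library Has1 lay between 0.18 and 0.22 and Has3 between -0.21 and -0.12, where its exact p was 0.0571 without cFos 2, cFos 4 or cFos 8. The median of all tested genes, -0.06, lay at -0.01 with median-of-ratios scaling and at -0.09 with rescaling to TPM. With 4 lines per virus and 1 library each, the precision is that of the intervals given.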
